A study of Drosophila melanogaster with 24 samples.

Results

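The insulin and TOR (target of rapamycin) pathway couples growth to nutrients and stress, and 10 of its genes are described here across 8 groups of *Drosophila* S2 cells. They were chosen by symbol, as every locus whose gene name was *Sesn*, *Thor*, *foxo*, *InR*, *chico*, *Akt1*, *Tor*, *S6k*, *gig* or *Tsc1*. The symbols were picked with earlier results of these data known. Each symbol was found at 1 locus, so the set is 10 of the 14542 loci in the tables, and all 10 were among the 7748 loci with a mean of at least 1 FPKM (fragments per kilobase of transcript, scaled to the number of mapped fragments) over the 8 groups. S2 is an established line of hemocyte-like embryonic cells. All cells received double-stranded RNA (dsRNA) for 4 days, against *Sin3A*, *lid*, both genes or, in the control, *GFP*, and 4 of the groups were also treated with 8.3 mM paraquat, a generator of superoxide, for 24 h. SIN3 is the scaffold of a histone deacetylase complex, and dKDM5/LID, the product of *lid*, is a demethylase of histone H3 lysine 4. The groups are called SIN3 KD + LID KD, SIN3 KD, LID KD and GFP RNAi, each with and without paraquat. Each was made from 3 replicates, but the tables give a single pooled FPKM value for a group.

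In this pathway the insulin receptor (InR) acts through the adaptor Chico and the kinase Akt1, which holds back both the transcription factor FOXO and the TSC complex of Tsc1 and Gigas (gig, the fly TSC2). The TSC complex restrains the Tor kinase. Tor complex 1 drives translation by activating S6 kinase (S6k) and by inactivating the eIF4E-binding protein Thor. Sestrin (Sesn) is a stress-responsive inhibitor of Tor complex 1, and *Thor* and *InR* are known transcriptional targets of FOXO.

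The 10 genes lie, in genome build dm3, on 4 chromosome arms. *Thor* spans chr2L:3478434-3479612, *chico* chr2L:10242512-10247078 and *Tor* chr2L:13004480-13013197. *Sesn* is the only member on 2R, at chr2R:19601425-19620706. *S6k* (chr3L:5790649-5804031) and *gig* (chr3L:20122281-20132110) are on 3L. *foxo* (chr3R:9882667-9913700), *InR* (chr3R:17395970-17445043), *Akt1* (chr3R:11924938-11930239) and *Tsc1* (chr3R:19956032-19960376) are on 3R. In the later BDGP6 annotation, 67.4% of the exonic bases of *Sesn* are shared with other genes, and 65.1% lie in CG46429, which is on the same strand. For *chico* the share is 10.6%, all of it in the antisense gene asRNA:CR44995, and the exons of the other 8 overlap no other gene. Reads in shared bases cannot be assigned to 1 gene, so the *Sesn* and *chico* values carry that limit.

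The knockdown was checked first in the targeted transcripts. *lid* had 17.0, 15.4, 16.9 and 14.9 FPKM in SIN3 KD + LID KD + paraquat, LID KD + paraquat, SIN3 KD + LID KD and LID KD, against 43.0, 35.8, 39.1 and 37.2 FPKM in SIN3 KD + paraquat, GFP RNAi + paraquat, SIN3 KD and GFP RNAi. It fell by 1.26 (SE 0.0409) on the log2 scale with *lid* dsRNA (limma adjusted p = 0.000236). With *Sin3A* dsRNA *lid* was called higher, by 0.165 (SE 0.0409, adjusted p = 0.015), and was higher in 4 of 4 pairs. That call was lost on leaving out SIN3 KD + paraquat or LID KD (adjusted p = 0.0138 to 0.064 over the 8 groups left out in turn). *Sin3A* had 58.0 to 61.7 FPKM in the 4 groups labelled SIN3 KD and 62.02 to 67.9 FPKM in the 4 groups without *Sin3A* dsRNA, a log2 effect of -0.12 (SE 0.0438, adjusted p = 0.0590). It was lower in 4 of 4 pairs. The effect passed the threshold when each group was centred on its median (-0.15, adjusted p = 0.0199) and without GFP RNAi + paraquat (-0.15, adjusted p = 0.0264), with an adjusted p of 0.0199 to 0.153 over all alternatives run. The *Sin3A* transcript was thus at most slightly lower in these groups, whose effects are given below as effects of *Sin3A* dsRNA, by label. The tables hold no protein levels. The study reports a routine western blot check of SIN3 protein, which is not used here. Of the 8 hemocyte markers found, 7 had a mean of at least 1 FPKM, with group sums of 753.8 to 1507 FPKM, and *Hml* was under 1 FPKM. Muscle, fat body, germline or ovary and gut markers were all under 1 FPKM, and of 3 neuronal markers only *elav* reached it, at a mean of 4.19 FPKM. The hemocyte sum was 753.8, 781.8, 958.9 and 1082 FPKM in SIN3 KD + LID KD + paraquat, SIN3 KD + paraquat, LID KD + paraquat and GFP RNAi + paraquat, and 972.8, 967.1, 1285 and 1507 FPKM in SIN3 KD + LID KD, SIN3 KD, LID KD and GFP RNAi. The sum was thus highest in GFP RNAi, as *Sesn* and *InR* were, and its part in their results was not tested. Its largest part was *He*, at 378.9 to 773.9 FPKM. The markers did not all move alike. *srp*, *Hml*, *Pxn*, *He*, *vkg* and the locus of *MED15* and *ush* were highest in GFP RNAi, and *Cg25C* in LID KD. *crq* had 122.4 to 140.1 FPKM with *Sin3A* dsRNA and 103.5 to 110.9 FPKM without it. In these bulk samples fewer cells of a type and less RNA per cell cannot be told apart. Summed FPKM was 749891 to 814105 a group.

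Because the tables hold no replicate values, effects were tested over the factorial design. Each of the 3 treatments (paraquat, *Sin3A* dsRNA, *lid* dsRNA) is present in 4 groups and absent in 4, so that its effect is seen in 4 pairs of groups that differ by it alone. The log2(FPKM + 0.1) values of the 8 groups were fitted with the 3 main effects in limma, with 4 residual degrees of freedom, and p-values were adjusted over all 7748 loci within each effect. The residual holds the interactions and the error of the pooled values together. An effect was called at an adjusted p under 0.05. The spread between replicates is not in the tables, so a p measures spread among the 8 pooled values.

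**Figure D1:**
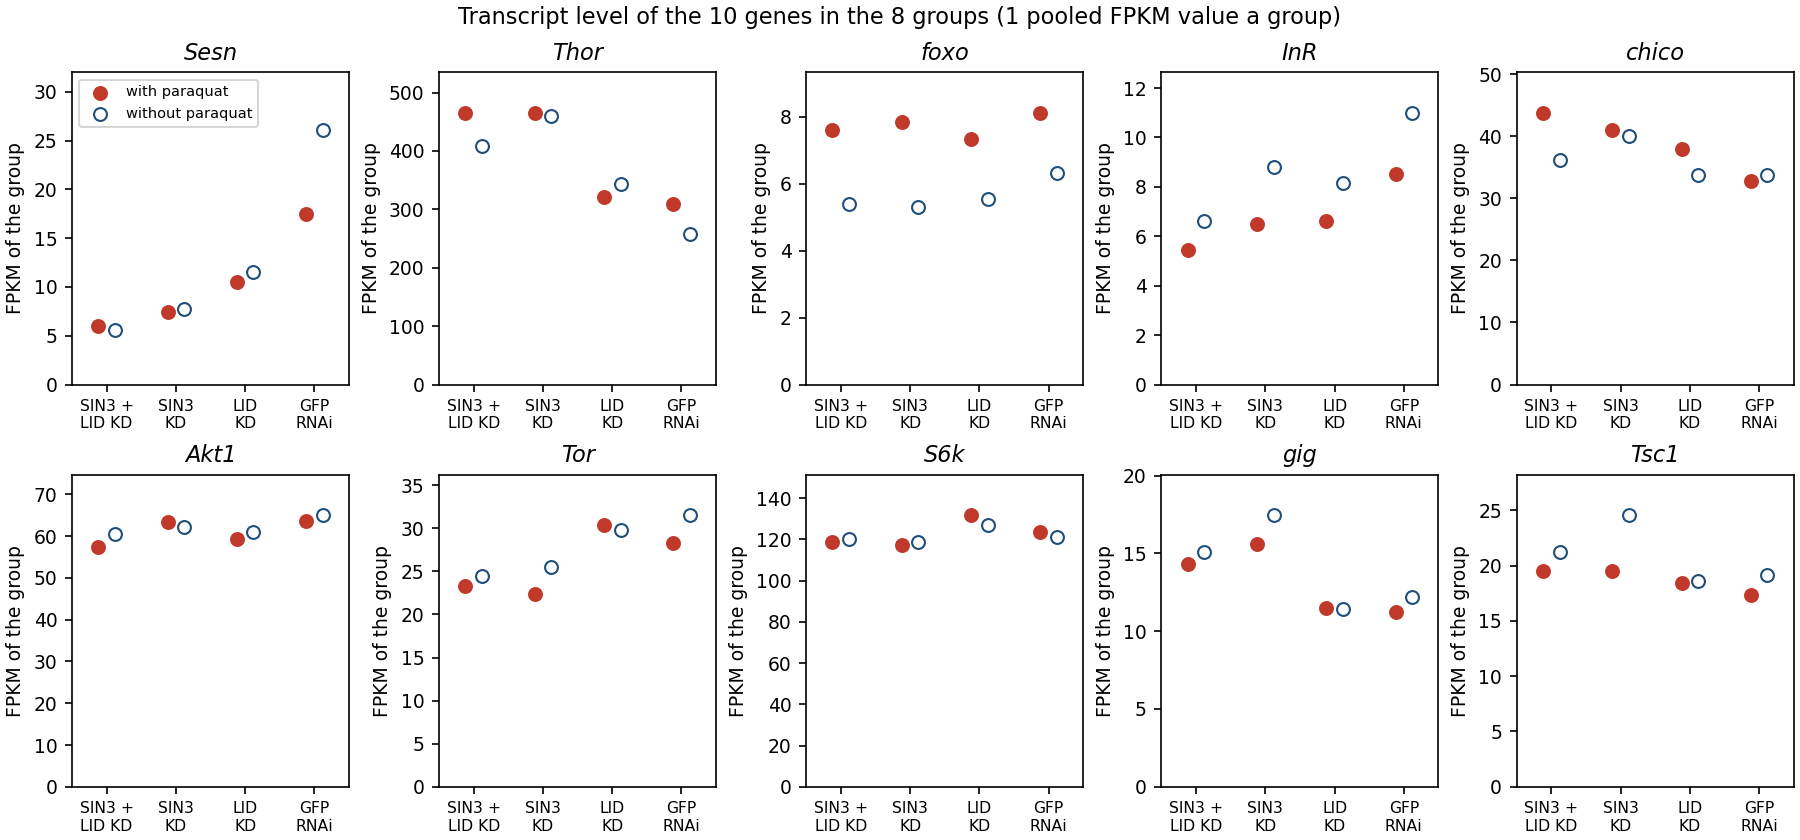
FPKM (vertical axis, from 0, a separate scale for each gene) of the 10 genes in the 4 dsRNA groups, with paraquat (filled red) and without it (open blue); each point is 1 pooled value and has no error bar. *Sesn* is at most 7.78 FPKM in the groups with *Sin3A* dsRNA and at least 10.5 FPKM in those without it, while *Akt1* and *S6k* stay within narrow ranges.

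*Sesn* varied most of the 10 genes, 4.64-fold between its highest and lowest group. It had 6.04, 7.46, 10.5 and 17.4 FPKM in SIN3 KD + LID KD + paraquat, SIN3 KD + paraquat, LID KD + paraquat and GFP RNAi + paraquat. Without paraquat it had 5.63, 7.78, 11.6 and 26.1 FPKM in SIN3 KD + LID KD, SIN3 KD, LID KD and GFP RNAi. The 4 groups with *Sin3A* dsRNA were all below the 4 without it. With *Sin3A* dsRNA it fell by 1.19 (SE 0.154) on the log2 scale, to 0.438 of its level without it (adjusted p = 0.00112), and 2.84% of all loci had a larger effect in either direction. The *lid* dsRNA effect was -0.66 (SE 0.154), lower in 4 of 4 pairs, and missed the threshold (adjusted p = 0.0647), and 2.77% of loci had a larger effect. The paraquat effect was -0.17 (SE 0.154, adjusted p = 0.417).

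The pairs behind these *Sesn* effects were unequal. *Sin3A* dsRNA went with a log2 ratio of -1.73 in cells with no other treatment (SIN3 KD against GFP RNAi) and of -0.79 where *lid* dsRNA and paraquat were also present. *lid* dsRNA went with -1.17 in LID KD against GFP RNAi and with -0.30 in SIN3 KD + LID KD + paraquat against SIN3 KD + paraquat. Paraquat went with -0.58 in GFP RNAi cells, and with ratios of -0.13 to 0.10 in the knockdown groups. The lowest level in any group was 5.63 FPKM, and the largest ratios belong to pairs that include GFP RNAi without paraquat, where *Sesn* was highest. A fit with the pairwise interactions, which leaves 1 residual degree of freedom, called none of these differences: the *Sin3A* dsRNA by *lid* dsRNA term was 0.56 (SE 0.0997, adjusted p = 0.180), the *Sin3A* dsRNA by paraquat term 0.38 (adjusted p = 0.258) and the *lid* dsRNA by paraquat term 0.30 (adjusted p = 0.144).

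*Thor* had the highest level of the 10 genes. It had 465, 465, 322 and 308 FPKM in SIN3 KD + LID KD + paraquat, SIN3 KD + paraquat, LID KD + paraquat and GFP RNAi + paraquat, and 408, 460, 344 and 257 FPKM in SIN3 KD + LID KD, SIN3 KD, LID KD and GFP RNAi. The groups with *Sin3A* dsRNA did not overlap those without it. *Thor* rose by 0.55 (SE 0.0905) on the log2 scale, or 1.47-fold, with *Sin3A* dsRNA (adjusted p = 0.00288), with ratios of 0.25 to 0.84 in the 4 pairs. The *lid* dsRNA effect was 0.08 (95% interval -0.14 to 0.29, adjusted p = 0.662) and the paraquat effect 0.09 (95% interval -0.12 to 0.31, adjusted p = 0.446). The *lid* dsRNA ratio was 0.42 in LID KD against GFP RNAi, and -0.17 to 0.06 in the other 3 pairs.

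**Figure D2:**
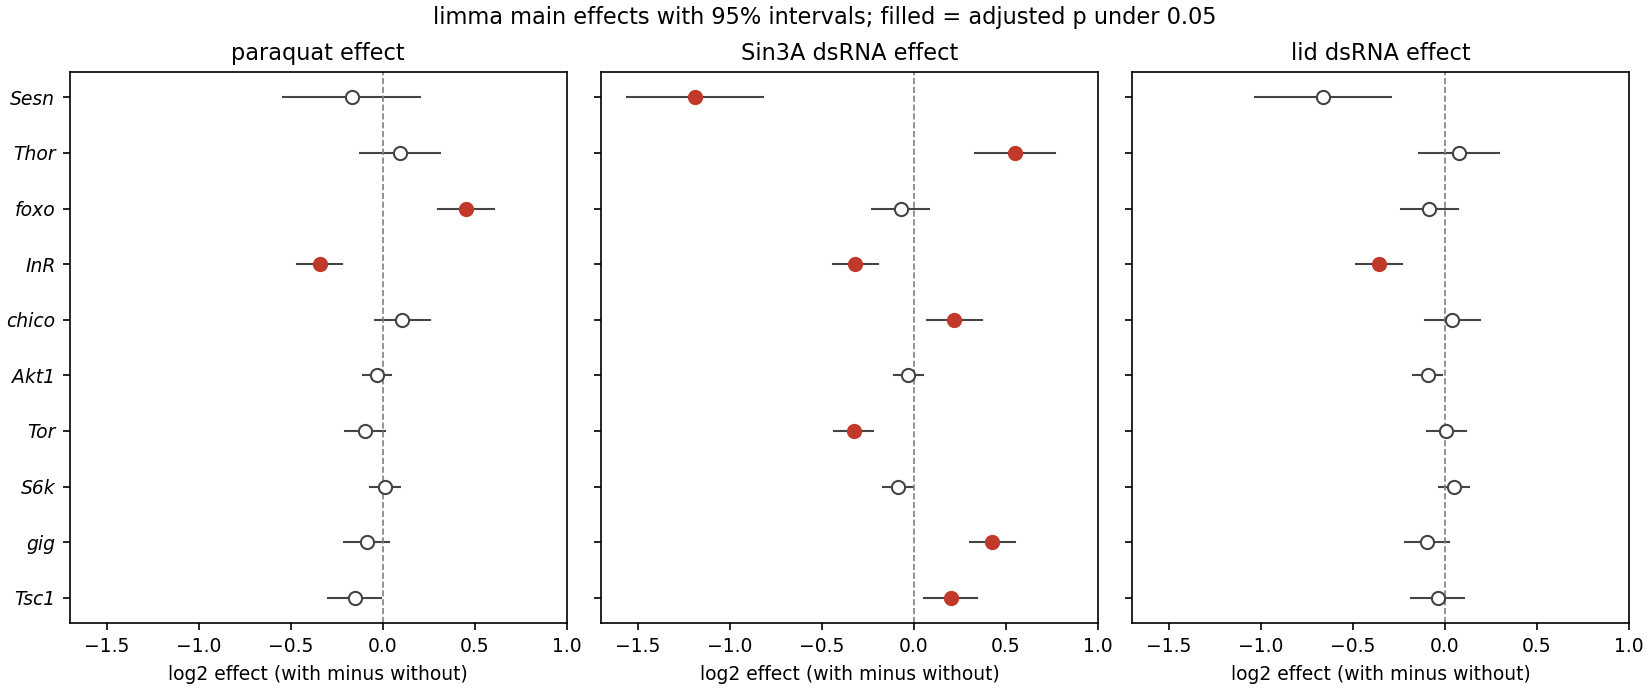
Main effects of paraquat, *Sin3A* dsRNA and *lid* dsRNA on the 10 genes, as log2 differences (horizontal axis, groups with the treatment minus groups without it) with 95% intervals from limma; filled points passed an adjusted p of 0.05. Of the 3 panels, *Sin3A* dsRNA has 7 filled points, paraquat 2 (*foxo* and *InR*) and *lid* dsRNA 1 (*InR*).

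Over the set, *Sin3A* dsRNA was called for 7 of 10 genes, 4 higher (*Thor*, *chico*, *gig*, *Tsc1*) and 3 lower (*Sesn*, *InR*, *Tor*). The same effect was called for 52.4% of all loci, 26.1% higher and 26.4% lower, so a count of 7 of 10 is not far from the background. Paraquat was called for 2 of 10, 1 higher (*foxo*) and 1 lower (*InR*), against 36.8% of all loci (15.2% higher, 21.6% lower). *lid* dsRNA was called for 1 of 10 (*InR*, lower), against 4.54% of all loci (2.48% higher, 2.07% lower). The 4 groups with *Sin3A* dsRNA did not overlap the 4 without it for 6 members (29.7% of all loci), the groups with paraquat for 1 (15.5%) and the groups with *lid* dsRNA for 1 (2.49%).

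At the receptor end, *InR*, the insulin receptor, was the only member called in all 3 effects, and it fell in each. It had 5.44, 6.50, 6.62 and 8.52 FPKM in SIN3 KD + LID KD + paraquat, SIN3 KD + paraquat, LID KD + paraquat and GFP RNAi + paraquat, and 6.63, 8.80, 8.16 and 10.99 FPKM in SIN3 KD + LID KD, SIN3 KD, LID KD and GFP RNAi. All 12 pair ratios were negative: -0.43 to -0.28 for paraquat, -0.38 to -0.28 for *Sin3A* dsRNA and -0.42 to -0.25 for *lid* dsRNA. The main effects were -0.34 (SE 0.0510, adjusted p = 0.00446) for paraquat, -0.32 (adjusted p = 0.00262) for *Sin3A* dsRNA and -0.36 (adjusted p = 0.0243) for *lid* dsRNA. SIN3 KD + LID KD + paraquat was 2.02-fold lower than GFP RNAi. Of all 7748 loci, 54 (0.697%) were called lower in all 3 effects. With any 1 group left out, 3 residual degrees of freedom remain, and the *lid* dsRNA call was lost in all 8 cases (adjusted p = 0.0632 to 0.125) with an effect of -0.39 to -0.34.

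*chico*, which encodes the insulin receptor substrate, moved the other way with *Sin3A* dsRNA. It had 43.8, 41.1, 37.9 and 32.7 FPKM in SIN3 KD + LID KD + paraquat, SIN3 KD + paraquat, LID KD + paraquat and GFP RNAi + paraquat, and 36.2, 40.1, 33.8 and 33.8 FPKM in SIN3 KD + LID KD, SIN3 KD, LID KD and GFP RNAi. It rose by 0.22 (SE 0.0620) with *Sin3A* dsRNA (adjusted p = 0.0243), higher in 4 of 4 pairs, though the groups overlapped. The call was lost on leaving out SIN3 KD + LID KD + paraquat, SIN3 KD + paraquat, GFP RNAi + paraquat, SIN3 KD or LID KD, with an adjusted p of 0.00870 to 0.0839 over the 8 groups left out in turn. Its *lid* dsRNA by paraquat term was 0.22 (SE 0.0375, adjusted p = 0.0722).

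*Akt1*, the kinase below the receptor, was the steadiest gene beside *S6k*. It had 57.4, 63.5, 59.2 and 63.6 FPKM in SIN3 KD + LID KD + paraquat, SIN3 KD + paraquat, LID KD + paraquat and GFP RNAi + paraquat, and 60.6, 62.2, 61.0 and 65.0 FPKM in SIN3 KD + LID KD, SIN3 KD, LID KD and GFP RNAi, a 1.13-fold range. No effect was called. The 95% intervals were -0.11 to 0.05 for both paraquat and *Sin3A* dsRNA and -0.17 to -0.02 for *lid* dsRNA (adjusted p = 0.148), for which the groups with it (57.4 to 61.0 FPKM) lay below those without it (62.2 to 65.0 FPKM).

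*foxo*, the transcription factor that Akt1 keeps out of the nucleus, was the member that rose with paraquat. It had 7.62, 7.83, 7.34 and 8.11 FPKM in SIN3 KD + LID KD + paraquat, SIN3 KD + paraquat, LID KD + paraquat and GFP RNAi + paraquat, against 5.38, 5.29, 5.53 and 6.30 FPKM in SIN3 KD + LID KD, SIN3 KD, LID KD and GFP RNAi. All treated groups were above all untreated ones. The effect was 0.45 (SE 0.0637), or 1.37-fold (adjusted p = 0.00371), with ratios of 0.36 to 0.56 in the 4 pairs, and 11.8% of loci had a larger paraquat effect. *Sin3A* dsRNA (-0.07, adjusted p = 0.387) and *lid* dsRNA (-0.09, adjusted p = 0.477) were not called. Of the known FOXO targets among the 10 genes, *InR* fell with paraquat and *Thor* was not called.

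**Figure D3:**
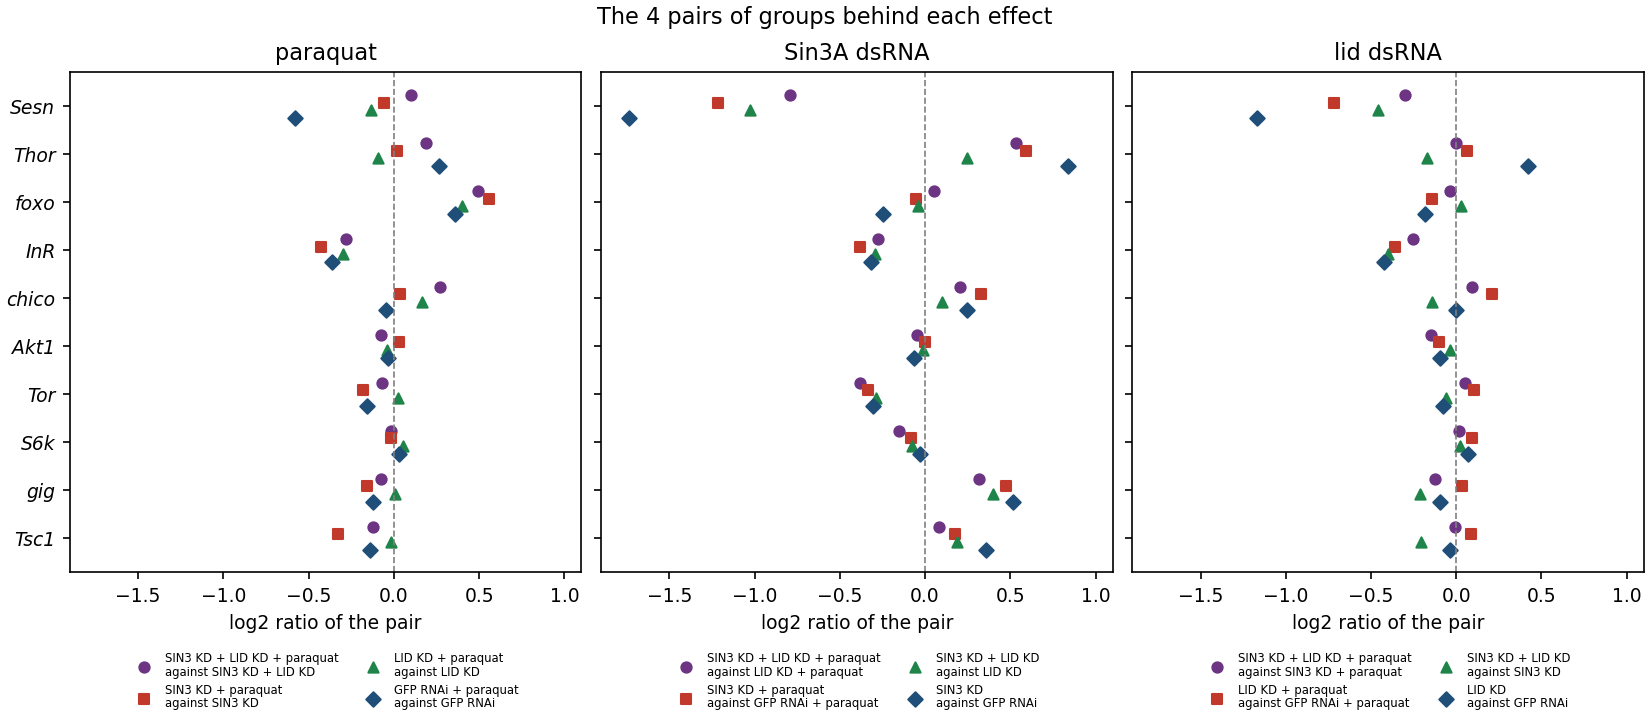
The 4 log2 ratios (horizontal axis) between groups that differ by paraquat, *Sin3A* dsRNA or *lid* dsRNA alone, for each of the 10 genes; each symbol is 1 pair of groups, named under its panel. The *foxo* ratios with paraquat (0.36 to 0.56) and the *InR* ratios in all 3 panels lie close together, whereas those of *Sesn* with *Sin3A* dsRNA spread over -1.73 to -0.79.

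The TSC complex genes rose and *Tor* fell with *Sin3A* dsRNA. *gig*, encoding the GTPase-activating subunit of the complex, had 14.3, 15.6, 15.1 and 17.5 FPKM in SIN3 KD + LID KD + paraquat, SIN3 KD + paraquat, SIN3 KD + LID KD and SIN3 KD, against 11.5, 11.2, 11.4 and 12.2 FPKM in LID KD + paraquat, GFP RNAi + paraquat, LID KD and GFP RNAi. It rose by 0.43 (SE 0.0503), or 1.34-fold (adjusted p = 0.000781). *Tsc1*, the partner that stabilises Gigas, had 19.5, 19.6, 21.2 and 24.6 FPKM in SIN3 KD + LID KD + paraquat, SIN3 KD + paraquat, SIN3 KD + LID KD and SIN3 KD, against 18.4, 17.3, 18.7 and 19.1 FPKM in LID KD + paraquat, GFP RNAi + paraquat, LID KD and GFP RNAi. Neither gene's groups overlapped. *Tsc1* rose by 0.20 (SE 0.0603, adjusted p = 0.0307), but leaving out SIN3 KD + LID KD + paraquat, SIN3 KD + paraquat, GFP RNAi + paraquat, LID KD or GFP RNAi ended the call (adjusted p = 0.0154 to 0.0991 over the 8 groups left out in turn). With no filter on low values its adjusted p was 0.0506. *Tsc1* was lower with paraquat in 4 of 4 pairs, an effect of -0.15 (SE 0.0603) that missed the threshold (adjusted p = 0.0914).

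*Tor*, the kinase at the centre of both TOR complexes, had 23.3, 22.4, 24.5 and 25.4 FPKM in SIN3 KD + LID KD + paraquat, SIN3 KD + paraquat, SIN3 KD + LID KD and SIN3 KD, against 30.4, 28.3, 29.9 and 31.5 FPKM in LID KD + paraquat, GFP RNAi + paraquat, LID KD and GFP RNAi. The groups did not overlap, and the 4 pairs were close together, at -0.38 to -0.29. It fell by 0.33 (SE 0.0441) on the log2 scale (adjusted p = 0.00132). Its *lid* dsRNA effect was 0.01 (95% interval -0.10 to 0.11, adjusted p = 0.953).

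*S6k*, the kinase that carries the Tor signal to the ribosome, had 118.5, 117, 132 and 124 FPKM in SIN3 KD + LID KD + paraquat, SIN3 KD + paraquat, LID KD + paraquat and GFP RNAi + paraquat, and 120.04, 118, 127 and 121 FPKM in SIN3 KD + LID KD, SIN3 KD, LID KD and GFP RNAi. The range was 1.13-fold. The *Sin3A* dsRNA effect was -0.09 (SE 0.0335, adjusted p = 0.0731), with the groups just separate, and it passed the threshold when each group was centred on its median (adjusted p = 0.0204; 0.0204 to 0.0901 over the 6 alternatives other than leaving out a group). The paraquat effect was 0.01 (95% interval -0.07 to 0.09).

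Set against GFP RNAi without paraquat, the share of members past 1.4-fold was described with no test, since the 7 ratios share a denominator. *Sesn* was past 1.4-fold in all 7 groups and *InR* in 4. The count was 3 of 10 in SIN3 KD + LID KD + paraquat (*Sesn*, *Thor*, *InR*; 35.6% of all loci), 4 in SIN3 KD + paraquat (*Sesn*, *Thor*, *InR*, *Tor*; 32.3%) and 2 in LID KD + paraquat (*Sesn*, *InR*; 15.3%). It was 1 in GFP RNAi + paraquat (*Sesn*; 11.6%), 3 in SIN3 KD + LID KD (*Sesn*, *Thor*, *InR*; 27.2%), 3 in SIN3 KD (*Sesn*, *Thor*, *gig*; 22.9%) and 1 in LID KD (*Sesn*; 7.05%). In SIN3 KD + LID KD + paraquat, *Sesn* was 4.33-fold lower and *Thor* 1.81-fold higher than in GFP RNAi.

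None of the 30 pairwise interaction terms of the 10 genes was called. Of all loci the terms were called for 0.0258% (*Sin3A* dsRNA by paraquat), 3.91% (*lid* dsRNA by paraquat) and 0.0258% (*Sin3A* dsRNA by *lid* dsRNA). At an unadjusted p under 0.05 there were 1 (*Sesn*), 3 (*chico*, *Tor*, *Tsc1*) and 2 (*Sesn*, *chico*) members, against 18.4%, 35.8% and 22.4% of all loci.

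A wider list of insulin and TOR genes placed the 10 in their pathway. Of 72 further loci found, 61 reached a mean of 1 FPKM, and the rest included 7 of the 8 insulin-like peptide genes, which leaves *Ilp6* as the only such ligand above that level. *Sin3A* dsRNA was called for 36 of the 61, 25 higher and 11 lower, with a median effect of 0.05 (all loci -0.01, and 52.4% called). Paraquat was called for 23, 16 higher and 7 lower, with a median of 0.04 (all loci -0.01, and 36.8% called). *lid* dsRNA was called for 3, 1 higher and 2 lower, with a median of -0.00064 (all loci 0.00681, and 4.54% called).

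Autophagy is started by the Atg1 and Atg13 complex, on which Tor complex 1 acts. With *Sin3A* dsRNA, of 19 autophagy loci fitted, 11 rose and 0 fell, with a median effect of 0.22, while 26.1% of all loci rose and 26.4% fell. The wider list was drawn up with earlier results of these data known, so this contrast with all loci is not an independent test. The locus of CG30184 and *Pi3K59F*, the gene of the Vps34 lipid kinase, had 29.8 to 34.8 FPKM with *Sin3A* dsRNA and 16.4 to 19.5 FPKM without it, a rise of 0.84 (SE 0.0713, adjusted p = 0.000272). That value belongs to the whole locus and cannot be assigned to *Pi3K59F* alone. *ref(2)P*, the fly p62 autophagy receptor, rose by 0.67 (SE 0.0629), *Atg9*, a membrane protein of the forming autophagosome, by 0.59 (SE 0.0600), and CG1347 (Atg17), a partner of the Atg1 kinase, by 0.56 (SE 0.0498). The level of *Atg8a*, named after its values were seen as the best-known autophagosome marker, rose by 0.28 (SE 0.0322, adjusted p = 0.000750). The other 8 were not called, *Atg1* among them (0.06, adjusted p = 0.207; also named after its values were seen). With paraquat 6 of the 19 rose and 1 fell, while 15.2% of all loci rose and 21.6% fell.

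**Figure D4:**
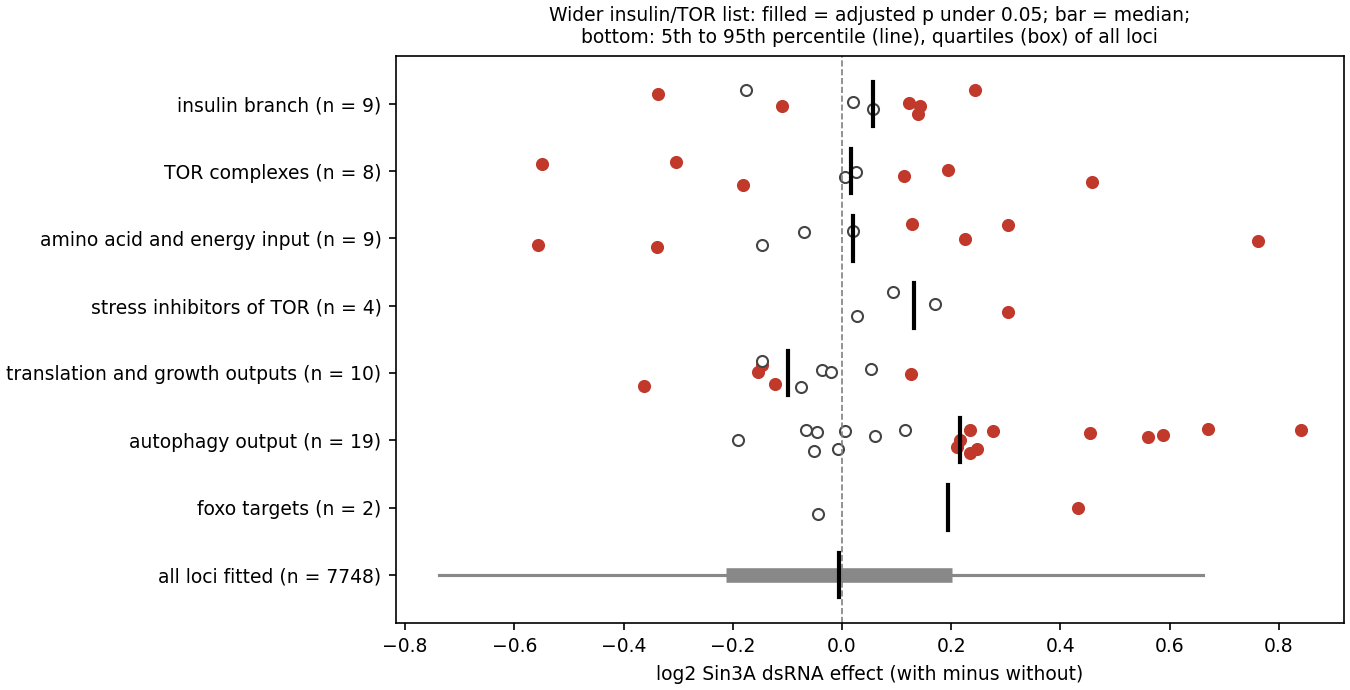
*Sin3A* dsRNA effect (horizontal axis, log2) of each gene of the wider list by branch, spread vertically only for legibility; filled points passed an adjusted p of 0.05, the black bar is the median of the branch, and the bottom row gives all 7748 loci. In the autophagy branch the 11 filled points are all above 0, while the branches for insulin, TOR complexes and amino acid and energy input have called genes on both sides.

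The TOR complex and input branches moved in both directions. The counts with *Sin3A* dsRNA stand beside 26.1% of all loci higher and 26.4% lower. Of 8 TOR complex loci, 3 rose and 3 fell with *Sin3A* dsRNA, among them *Lst8*, a subunit of both complexes, at 20.6 to 23.9 FPKM with it and 31.3 to 33.5 FPKM without it (a fall of 0.55, SE 0.0387, adjusted p = 0.000172). Of 9 amino acid and energy input genes, 4 rose and 2 fell. *mio*, a GATOR2 subunit that favours Tor complex 1, rose by 0.76 (SE 0.0658). CG9104 (Nprl2), a subunit of the inhibitory GATOR1 complex, fell by 0.34 (SE 0.0412). The other GATOR1 subunits of the list were not called (effects of -0.15 and 0.02). The amino acid transporter gene *path* fell by 0.56 (SE 0.0838). In the insulin branch 4 of 9 rose and 2 fell, among them *Pdk1*, the kinase that activates Akt1 (a fall of 0.34, SE 0.0592). Of 10 translation and growth genes 1 rose and 4 fell, CG18619 (REPTOR-BP) most, by 0.36 (SE 0.0451). The branch labelled stress inhibitors of TOR holds 4 genes: the TOR inhibitors *scyl* and *chrb*, and the transcription factor genes *crc* (ATF4) and *sima*. Of these 1 rose (*chrb*), and of 2 fitted FOXO targets 1 rose.

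With paraquat, the largest rise in the wider list was that of *chrb*, a REDD1 homologue and inhibitor of TOR signalling, with 22.9 to 33.8 FPKM in treated groups and 17.0 to 22.2 FPKM in untreated ones (0.56, SE 0.0618, adjusted p = 0.00188). *SNF4Agamma*, a subunit of AMP-activated kinase, rose by 0.45 (SE 0.0463), *Sin1*, a subunit of TOR complex 2, by 0.30 (SE 0.0389), *ImpL2*, which binds and sequesters insulin-like peptides, by 0.29 (SE 0.0626), and *Lnk*, an adaptor of the receptor, by 0.29 (SE 0.0430). *Ilp6* fell by 0.35 (SE 0.0407), the locus of *Mipp2* and *raptor* by 0.24 (SE 0.0487), and *Atg7* by 0.26 (SE 0.0716). *eIF4AIII*, which fell by 0.35 (SE 0.0395), encodes a helicase of the exon junction complex rather than an initiation factor. By branch, the paraquat counts stand beside 15.2% of all loci higher and 21.6% lower. Of 9 insulin genes 3 rose and 2 fell, and of 8 TOR complex loci 2 rose and 2 fell. Of 9 input genes 1 rose and 1 fell. Of the 4 stress branch genes 2 rose, the TOR inhibitor *chrb* and the transcription factor gene *crc* (0.16, adjusted p = 0.042). The other TOR inhibitor of that branch, *scyl*, was not called (0.22, adjusted p = 0.208). Of 10 translation and growth genes 2 rose, neither of them a translation factor gene, and the 1 that fell was *eIF4AIII*. Of 2 FOXO targets 0 were called.

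*L* (Lobe, the fly PRAS40, an inhibitor of Tor complex 1) was called lower in all 3 effects, as *InR* was. It had 20.2, 24.4, 25.1 and 29.6 FPKM in SIN3 KD + LID KD + paraquat, SIN3 KD + paraquat, LID KD + paraquat and GFP RNAi + paraquat, and 23.6, 27.6, 29.2 and 34.3 FPKM in SIN3 KD + LID KD, SIN3 KD, LID KD and GFP RNAi. Its effects were -0.21 (paraquat, SE 0.0313, adjusted p = 0.00471), -0.30 (*Sin3A* dsRNA, adjusted p = 0.000486) and -0.24 (*lid* dsRNA, adjusted p = 0.0191). With *lid* dsRNA, CG13624 (REPTOR), a transcription factor held back by Tor complex 1, fell by 0.29 (SE 0.0403, adjusted p = 0.0230), and the locus of CG18301 and *Lip4*, a lipase gene known as a FOXO target, rose by 0.36 (SE 0.0672, adjusted p = 0.0409). These 3 were the only *lid* dsRNA calls in the wider list, and 0 remained with any 1 group left out.

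Among 2303 loci that varied by an SD of at least 0.3 on the log2 scale over the 8 groups, those closest to *Sesn* in profile were *lea* (Pearson r = 0.996), CG42663 (0.993) and CG5322 (0.992). CG5322 had 1.45 FPKM in SIN3 KD + LID KD + paraquat and 10.8 FPKM in GFP RNAi, and *lea*, a Robo-family guidance receptor gene, 0.689 and 2.27 FPKM in the same groups. Closest to *Thor* were CG32100 (0.968), CG17187 (0.963) and CG10383 (0.959). These correlations run over 8 pooled values that share the group design and are given with no test.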

How the data were processed

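The 24 samples (8 groups of 3 replicates) are S2 cell RNA libraries. Per the study's methods, the authors aligned reads to dm3 with Bowtie/TopHat and used Cufflinks and Cuffdiff to make FPKM values for RefSeq genes. The deposited files are 7 Cuffdiff tables of 14542 loci, each with GFP RNAi and 1 other group. The authors' FPKM values are pooled over replicates, so there are no replicate values, and the depth behind a value is not in the tables. The GFP RNAi values were identical in all 7 tables. The tables also hold the authors' fold changes, test statistics and p-values, which were not used. Locus starts were taken to count from 0, since end minus start equalled the BDGP6 gene length for 4141 of 10824 loci, and 1 was added.

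Values were analysed as log2(FPKM + 0.1), which understates the change of low genes, at loci with a mean of at least 1 FPKM. The 8 group values were fitted in limma 3.58.1 (R 4.3.3; lmFit, eBayes with a trend) with 3 main effects, two-sided, with Benjamini-Hochberg adjustment over all loci within an effect. A second fit added the pairwise terms. Whether counting used strand is not given in the sources used here. Named genes were the 10 members, both targets, up to 5 pathway genes a direction and effect, and the 3 loci most like *Sesn* and *Thor*. Of the 72 pathway loci, 15 were matched through RefSeq synonyms (current symbols in parentheses). Where a locus holds several gene names, its value cannot be assigned to 1 of them. The members and lists were chosen with earlier results of these data known. Alternatives were a pseudocount of 1 FPKM, no low-value filter, a mean of at least 5 FPKM, median centring, no trend, an added *Sin3A* by *lid* term, a fold of 2 and each group left out.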

Additional observations from a re-analysis of the deposited data

Results flagged for a closer look

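In the fit with pairwise terms, the response to *lid* dsRNA differed between cells with and without paraquat for 4 of the 61 fitted loci of the wider list (limma adjusted p under 0.05). The same term was called for 3.91% of all loci, and 35.8% had an unadjusted p under 0.05. The *lid* dsRNA by paraquat term of *scyl*, a REDD1 homologue that inhibits TOR signalling, was 0.39 (SE 0.0346, adjusted p = 0.0437), with *lid* dsRNA ratios of 0.13 and 0.07 in cells with paraquat and -0.26 and -0.33 in cells without it. That of *bmm*, a triglyceride lipase gene and FOXO target, was 0.44 (SE 0.0371, adjusted p = 0.0409), with ratios of 0.07 and 0.16 with paraquat and -0.35 and -0.31 without it. That of *Ef2b*, a translation elongation factor gene, was 0.29 (SE 0.0271, adjusted p = 0.0443), and missed the threshold with a pseudocount of 1 FPKM (adjusted p = 0.0526). That of *RpS6*, the ribosomal protein that S6 kinase phosphorylates, was -0.59 (SE 0.0274, adjusted p = 0.0240), with ratios of -0.17 and -0.37 with paraquat and 0.44 and 0.20 without it. This fit leaves 1 residual degree of freedom, and without the intensity trend all 4 had an adjusted p of 0.156.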

How the results depend on the processing

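No paired analysis was possible because the tables hold pooled group values, which carry no replicate numbers. The alternatives for the pairwise terms and the wider list were added after seeing the data. With each group left out in turn, members called numbered 2 to 3 for paraquat, 5 to 7 for *Sin3A* dsRNA and 0 in all 8 cases for *lid* dsRNA. All loci called numbered 1413 to 2653 for paraquat (2851 with all groups), 3101 to 3814 for *Sin3A* dsRNA (4062) and 3 to 72 for *lid* dsRNA (352). Wider-list calls numbered 10 to 22 (23), 23 to 31 (36) and 0 (3). Such a fit has 3 residual degrees of freedom and fewer values. With no filter on low values *lid* dsRNA was called for 152 loci. Effects not called changed sign as follows when a group was left out: paraquat on *Sesn* -0.31 to 0.005 (0.0049), on *S6k* -0.0054 to 0.0277 and on *Sin3A* -0.0492 to 0.0169; *lid* dsRNA on *Thor* -0.0109 to 0.1416, on *chico* -0.0155 to 0.0972, on *Tor* -0.0265 to 0.0341 and on *Tsc1* -0.0903 to 0.0205. Median centring turned the uncalled paraquat effects on *Akt1* (0.0129) and *Sin3A* (0.0263). The *Sin3A* dsRNA calls of *Sesn*, *Thor*, *InR*, *Tor* and *gig* and the paraquat calls of *foxo* and *InR* held under every alternative run.

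For the pairwise terms, loci called for *lid* dsRNA by paraquat numbered 6 without a trend and 458 with centring (303 otherwise). *Sin3A* dsRNA by paraquat had 0 without a trend (2 otherwise), and *Sin3A* dsRNA by *lid* dsRNA had 4 without a trend, with a pseudocount of 1 FPKM and with centring (2 otherwise). Past a fold of 2 from GFP RNAi, members numbered 2 in SIN3 KD + LID KD + paraquat, 1 in SIN3 KD + paraquat and 1 in LID KD + paraquat. They numbered 0 in GFP RNAi + paraquat, 1 in SIN3 KD + LID KD, 1 in SIN3 KD and 1 in LID KD. The share of all loci past that fold is not given here. What limits all values is that the spread between replicates and the read depth are not in the tables.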
